A study of Mus musculus with 11 samples.

Results

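Vitamin A reaches cells as retinol, which is turned into retinal and then into retinoic acid, a small signal that enters the nucleus and binds retinoic acid receptors already sitting on DNA. Several of the genes that the signal switches on encode its own receptors, carriers and breakdown enzymes, so their RNA is widely used as a readout of the pathway, and in embryonic stem (ES) cells retinoic acid is a standard agent for inducing differentiation. The 9 genes described here were taken as a list of symbols: Stra6 (retinol uptake), Aldh1a2, Dhrs3 and Cyp26a1 (the enzymes that make retinoic acid, return retinal to retinol, and break retinoic acid down), Crabp1 and Crabp2 (carriers inside the cell), Rarb and Rarg (receptors) and Stra8 (a response gene known for the start of meiosis in germ cells). All 9 were found by matching the accessions of the array's probes to mouse symbols, among 20964 genes named on the array. They had 10 probes in all, 1 for each of 8 genes and 2 for Rarb, and all 9 genes were among the 16279 tested.

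Mouse ES cells of 129/Ola background, from the lines E14, HVJu5.1 and HVJu9.3, were kept for at least 3 passages in 2i/LIF (5 arrays), KOSR/LIF (3 arrays) or serum/LIF (3 arrays). All media contain LIF, the cytokine leukaemia inhibitory factor. 2i/LIF adds an inhibitor of the kinase MEK and one of the kinase GSK3, KOSR/LIF uses a serum replacement, and serum/LIF is the standard medium. The labels name no retinoid treatment, so the comparison is between media, and serum/LIF is the medium against which the others are set. Levels below are log2 processed intensities relative to the array's own 75th percentile, so 0 is that percentile and a difference of 1 is a doubling. Levels of different probes are not comparable.

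All 10 markers of pluripotent ES cells were well above background on every array. Their summed level was 9.48 to 9.95 on the 2i/LIF arrays, 8.87 to 9.29 on the KOSR/LIF arrays and 9.47 to 9.87 on the serum/LIF arrays, so it was lowest in KOSR/LIF, where replicate 3 had the lowest Pou5f1 (3.69, against 5.66 or more elsewhere) and Nanog (1.21, against 2.93 or more). Such sums add linear levels and are given as log2, so the brightest probe weighs most, here that of Dppa5a (8.22 to 9.08). Against serum/LIF 1 of the 10 was lower in 2i/LIF, where 9.98% of all genes tested were called lower. In KOSR/LIF 1 of the 10 was lower, where 2.21% of all genes were. The part of these differences in the results below was not tested. KOSR/LIF replicate 3 stood apart, with 43.7% of probes well above background and a 75th percentile of 65.3 intensity units, against 53.7% to 72.6% and 176 to 538 units on the other 10 arrays. The arrays were scanned on 3 days and lay on 5 slides. Day 1 held 2 arrays of each medium, day 2 held 2i/LIF replicate 2 and KOSR/LIF replicate 3, and day 3 held 2i/LIF replicates 1 and 5 and serum/LIF replicate 3. The labels name no sorting of cells, and in such bulk RNA fewer cells of a type and less RNA per cell cannot be told apart.

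The scanner values and the authors' deposited value table did not always hold the same array under the same name. Over 37461 probes, 6 of the 11 table columns ranked probes most like their own scanner array, with Spearman's rho from 0.993 to 1.000. The column of 2i/LIF replicate 1 was closest to the scanner array of replicate 4 (0.998, against 0.958 with its own), and the column of replicate 4 was closest to that of replicate 1 (0.998). KOSR/LIF replicates 1 and 2 were crossed in the same way (0.999 each, against 0.976 with their own). The column of KOSR/LIF replicate 3 matched none of the scanner arrays, with rho of 0.872 for its own and 0.970 for the closest. Both crossings lie within 1 medium and leave the comparison of media as it is, but the third KOSR/LIF array differs between the sources. For the genes of the opening list, calls that involve KOSR/LIF are therefore also given without this array and from the table. For other genes named below, single calls are not given in these ways. Replicate numbers below are those of the scanner arrays.

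**Figure D1:**
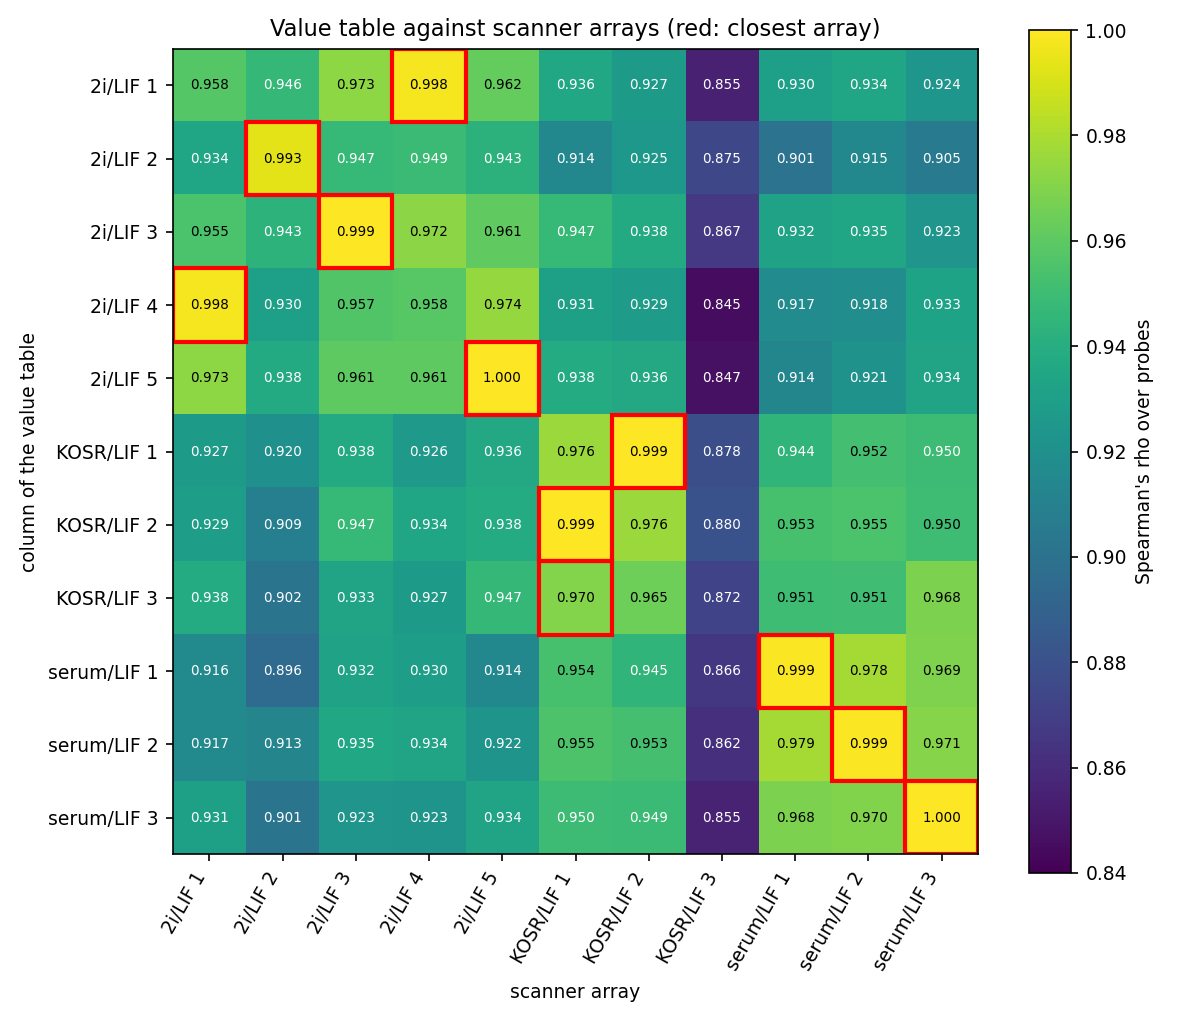
Spearman's rho between each column of the deposited value table (rows) and each scanner array (columns) over 37461 probes, with the closest array of each row outlined in red. 2i/LIF replicates 1 and 4 and KOSR/LIF replicates 1 and 2 are crossed, and the row of KOSR/LIF replicate 3 reaches 0.970 at most.

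Set against serum/LIF, KOSR/LIF cells had higher Stra8, Stra6 and Dhrs3, and 2i/LIF cells had higher Dhrs3 and lower Cyp26a1 and Rarg. Most calls were made between 2i/LIF and KOSR/LIF: Stra6, Dhrs3, Cyp26a1, Crabp2, Rarb, Rarg and Stra8 were lower in 2i/LIF than in KOSR/LIF, and Aldh1a2 was higher. In limma's test over all genes, 3 of the 9 passed at an adjusted p under 0.05 in 2i/LIF against serum/LIF (1 higher, 2 lower), where 16.7% of all genes passed (6.74% higher, 9.98% lower). In KOSR/LIF against serum/LIF 3 passed, all higher, where 4.58% of all genes passed (2.37% higher, 2.21% lower). In 2i/LIF against KOSR/LIF 8 passed (1 higher, 7 lower), where 14.7% of all genes passed (5.95% higher, 8.72% lower). The median log2 change of the 9 genes was 0.19 in 2i/LIF against serum/LIF, 1.49 in KOSR/LIF against serum/LIF and -2.20 in 2i/LIF against KOSR/LIF, beside 0.03, -0.03 and 0.02 over all genes tested. The arrays of 2i/LIF and serum/LIF did not overlap for 3 of the 9 genes, beside 25.7% of all genes (11.7% with 2i/LIF higher, 14% lower). KOSR/LIF and serum/LIF did not overlap for 6, beside 28.4% (12.4% higher, 16% lower), and 2i/LIF and KOSR/LIF did not overlap for 8, beside 19.6% (9.04% higher, 10.6% lower). Without KOSR/LIF replicate 3, 3 of the 9 passed in KOSR/LIF against serum/LIF and 7 in 2i/LIF against KOSR/LIF. Of all 16279 genes, 631 and 1958 passed there. Within scan day 1, with 2 arrays of each medium, 1, 3 and 4 of the 9 passed in the 3 comparisons. Beside these, 2379, 685 and 2071 of all 16279 genes passed. The 3 comparisons share arrays and are not independent of each other. The 9 genes were chosen with earlier results of these data known. Setting their calls beside the shares of all genes is therefore a description and no test of the list.

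**Figure D2:**
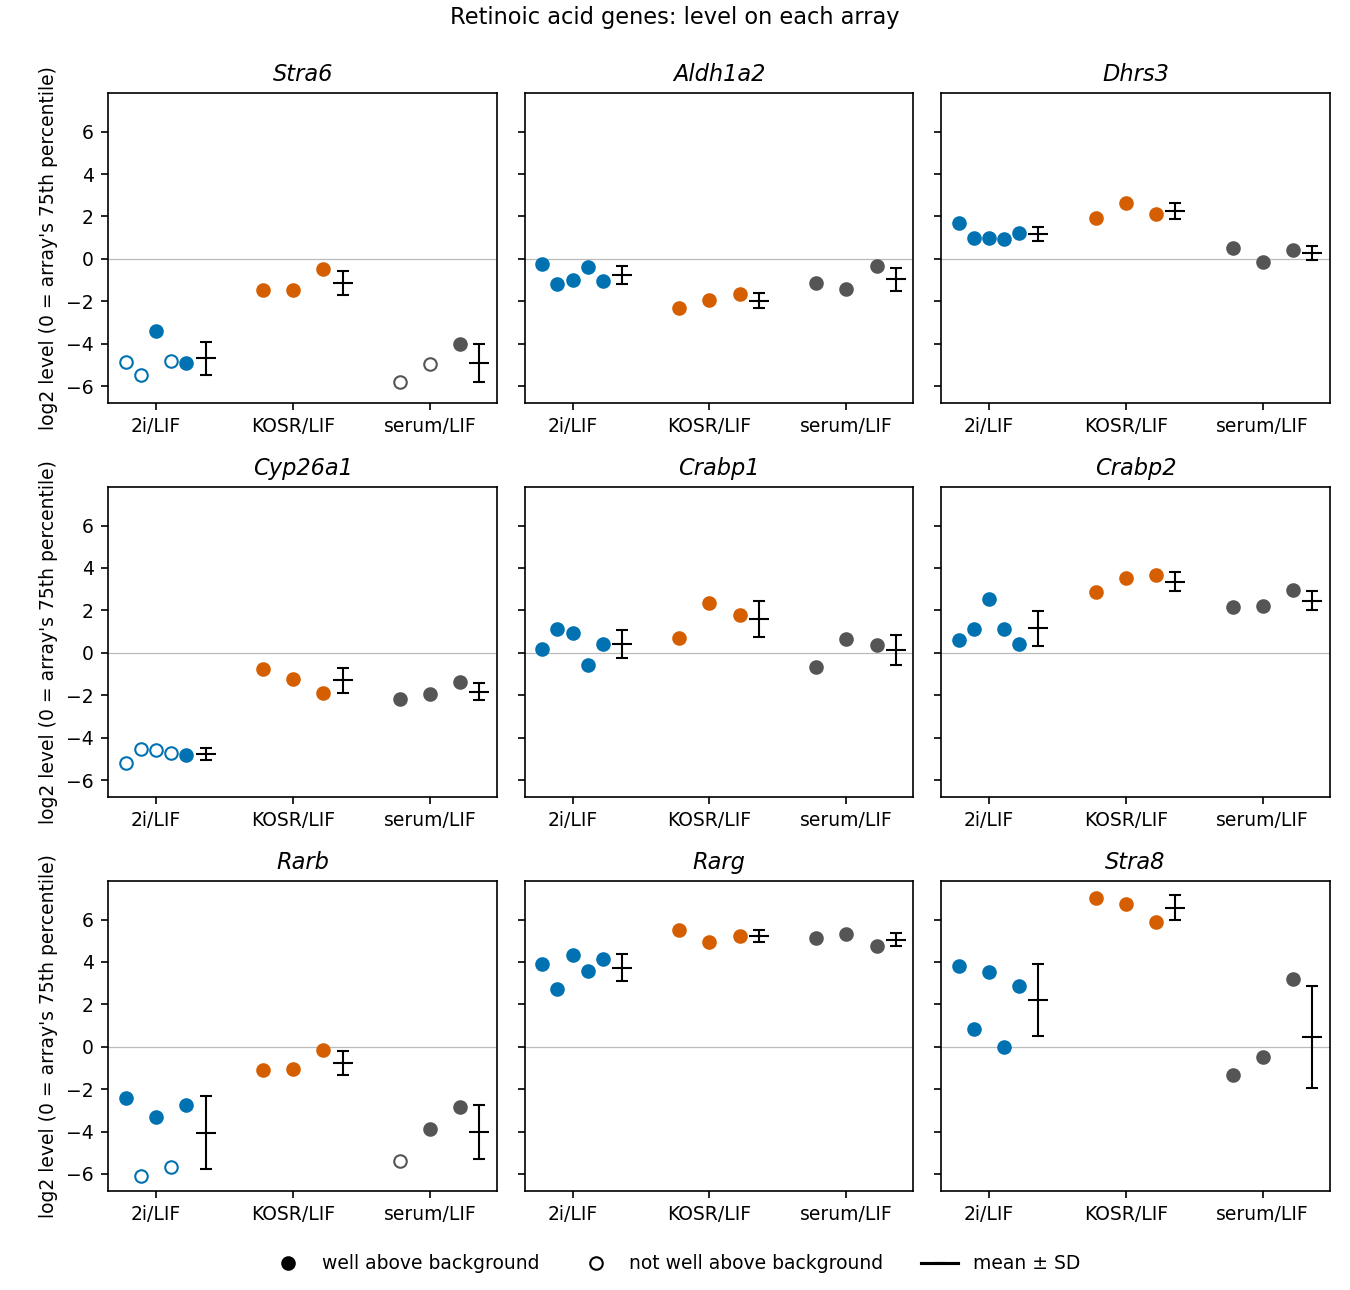
Log2 level of each of the 9 genes on each array (the brighter probe for Rarb), with 2i/LIF left, KOSR/LIF in the middle and serum/LIF right; open circles are spots not well above background, and bars are the mean and SD. Stra8, Stra6 and Dhrs3 are highest on the KOSR/LIF arrays, and Cyp26a1 is lowest on the 2i/LIF arrays.

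Retinoic acid receptors bind pairs of short half-sites, and the classical element has 2 half-sites in the same orientation 5 bases apart, called a DR5 retinoic acid response element. The 14 RefSeq promoter windows of 8 of the genes (build GRCm38.p6, 250 bases before to 50 after a transcript's start; Crabp2 had none) were searched on both strands for pairs of the half-site AGGTCA or its variants, which are AGTTCA and also GGGTCA and also GGTTCA, at spacings of 5, 2 and 1. A DR5 match was present in the windows of Rarb and Cyp26a1 and of no other member, beside 0.0974% of 32851 windows of all genes. No window of a member had a match at spacing 2 or 1, which 0.268% and 0.222% of all windows have. The 120 bases before the start are shown for both genes, since these are the members whose window holds the element, with the pair of half-sites in capitals; single half-sites elsewhere are not marked. Stra8 is shown because it had the largest change of the 9. Its window held no pair, and for it capitals mark a single AGGTCA, a half-site found in 16.3% of all windows. Rarb lies at chr14:16575477-16575596 (minus strand), Cyp26a1 at chr19:37697688-37697807 (plus strand) and Stra8 at chr6:34920828-34920947 (plus strand).
Rarb: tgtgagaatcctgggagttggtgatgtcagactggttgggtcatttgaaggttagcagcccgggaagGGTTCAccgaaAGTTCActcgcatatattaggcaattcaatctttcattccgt
Cyp26a1: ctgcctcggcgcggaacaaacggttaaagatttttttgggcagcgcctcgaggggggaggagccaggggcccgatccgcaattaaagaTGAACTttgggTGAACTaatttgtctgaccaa
Stra8: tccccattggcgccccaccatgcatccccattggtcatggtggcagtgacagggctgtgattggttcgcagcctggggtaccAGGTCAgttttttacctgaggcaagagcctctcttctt

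The Rarb element covers positions -53 to -37 from the start, on the gene's own strand. In Cyp26a1 the element covers positions -32 to -16 and reads as half-sites on the opposite strand. A match of letters is not evidence of binding, and binding was not measured.

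Stra6 encodes the membrane receptor that takes up retinol from its carrier protein in blood. Its level was -4.88, -5.46, -3.39, -4.81 and -4.93 on the 2i/LIF arrays, -1.48, -1.47 and -0.49 on the KOSR/LIF arrays, and -5.79, -4.95 and -4.00 on the serum/LIF arrays. All KOSR/LIF arrays lay above all others, while 2i/LIF and serum/LIF overlapped. The spot was well above background on 2 of 5 arrays in 2i/LIF, 3 of 3 in KOSR/LIF and 1 of 3 in serum/LIF. Stra6 was higher in KOSR/LIF than in serum/LIF by 3.77 ± 0.55 (SE, log2; adjusted p = 0.00532). It was lower in 2i/LIF than in KOSR/LIF, with a change of -3.54 ± 0.49 (adjusted p = 0.000634). With dim signals raised to the lowest level well above background on their array, these became 3.08 and -3.08. Leaving out KOSR/LIF replicate 3 gave 3.44 (adjusted p = 0.0150) and -3.22 (adjusted p = 0.00409). Under another background correction (normexp) the first fell short, at 1.36 (adjusted p = 0.0656), and the second was smaller but passed, at -1.38 (adjusted p = 0.0126). The change of 2i/LIF against serum/LIF was 0.22, with a 95% interval of -0.85 to 1.30 (adjusted p = 0.858).

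Aldh1a2 encodes the enzyme that oxidises retinal to retinoic acid in the early embryo. It was the only one of the 9 with its lowest mean in KOSR/LIF. Its level was -0.23, -1.18, -1.01, -0.39 and -1.03 in 2i/LIF, -2.34, -1.94 and -1.64 in KOSR/LIF, and -1.12, -1.42 and -0.36 in serum/LIF. The KOSR/LIF arrays lay below all others. The difference of 2i/LIF from KOSR/LIF was 1.20 ± 0.32 (adjusted p = 0.0251), and 1.37 without KOSR/LIF replicate 3 (adjusted p = 0.0302). The call was lost in 8 of 28 settings, with the smallest change under another background correction, normexp (0.56, adjusted p = 0.252). It was lost without KOSR/LIF replicate 1, at 1.02 (adjusted p = 0.106), and without KOSR/LIF replicate 2, at 1.22 (adjusted p = 0.0649). Leaving out 2i/LIF replicate 1 gave 1.07 (adjusted p = 0.0511), and leaving out 2i/LIF replicate 4 gave 1.11 (adjusted p = 0.0570). KOSR/LIF against serum/LIF gave -1.01 ± 0.36, which did not pass (adjusted p = 0.145), and neither did 2i/LIF against serum/LIF, at 0.19 with a 95% interval of -0.50 to 0.89 (adjusted p = 0.795).

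Dhrs3 encodes a retinal reductase that returns retinal to retinol and is itself induced by retinoic acid. Its level was 1.69, 1.00, 1.00, 0.94 and 1.24 in 2i/LIF, 1.92, 2.66 and 2.14 in KOSR/LIF, and 0.50, -0.13 and 0.42 in serum/LIF. The media were fully separated, in the order KOSR/LIF, 2i/LIF, serum/LIF, and Dhrs3 was the only one of the 9 that passed in all 3 comparisons. KOSR/LIF exceeded serum/LIF by 1.97 ± 0.30 (adjusted p = 0.00592), and this passed in every one of the 28 other settings tried. 2i/LIF exceeded serum/LIF by 0.91 ± 0.26 (adjusted p = 0.0348), but the call was lost in 15 of 29 settings, where the adjusted p reached 0.248. Among arrays left out singly, 2i/LIF replicates 1 and 5 and each serum/LIF replicate cost this call, with changes of 0.71 to 1.03. 2i/LIF against KOSR/LIF gave -1.06 ± 0.26 (adjusted p = 0.0185), and did not pass without KOSR/LIF replicate 2 (-0.85, adjusted p = 0.0846) or within scan day 1 (-1.32, adjusted p = 0.0633). Without KOSR/LIF replicate 3, KOSR/LIF against serum/LIF was 2.02 (adjusted p = 0.0113) and 2i/LIF against KOSR/LIF was -1.11 (adjusted p = 0.0358). In the value table the third KOSR/LIF column held Dhrs3 at 0.97, inside the 2i/LIF range of 0.85 to 1.54, and there 2i/LIF against KOSR/LIF was -0.71 (adjusted p = 0.157).

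Cyp26a1 encodes the cytochrome P450 that clears retinoic acid and is among its strongest known targets in ES cells. Its level was -5.22, -4.52, -4.60, -4.71 and -4.82 in 2i/LIF, -0.77, -1.22 and -1.91 in KOSR/LIF, and -2.18, -1.94 and -1.36 in serum/LIF. The 2i/LIF arrays lay far below the rest, and the spot was well above background on 1 of the 5, whereas KOSR/LIF and serum/LIF overlapped. 2i/LIF against serum/LIF gave -2.95 ± 0.30 (adjusted p = 5.40e-05) and 2i/LIF against KOSR/LIF gave -3.47 ± 0.30 (adjusted p = 3.74e-05), or -2.62 and -3.15 with dim signals raised. Both calls held in every other setting tried, though normexp brought the changes to -1.04 and -1.52. The change against KOSR/LIF was -3.78 without its replicate 3 (adjusted p = 8.00e-05). The change of KOSR/LIF against serum/LIF was 0.53 ± 0.33 and did not pass (adjusted p = 0.436; 95% interval -0.20 to 1.25).

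The carriers differed in how firmly they separated the media. Crabp2, which hands retinoic acid to the receptors, had levels of 0.58, 1.13, 2.53, 1.11 and 0.43 in 2i/LIF, 2.85, 3.54 and 3.67 in KOSR/LIF, and 2.16, 2.21 and 2.96 in serum/LIF. Every 2i/LIF array was below every KOSR/LIF array, and 2i/LIF replicate 3 lay within the serum/LIF range. 2i/LIF against KOSR/LIF gave -2.20 ± 0.44 (adjusted p = 0.00566) and -2.04 without KOSR/LIF replicate 3 (adjusted p = 0.0270), while within scan day 1 it was -1.38 (adjusted p = 0.150). 2i/LIF against serum/LIF was -1.29 ± 0.44 and missed the threshold (adjusted p = 0.0689). It passed in 4 of 29 settings, among them normexp (-1.21, adjusted p = 0.0435) and the fit without 2i/LIF replicate 3 (-1.63, adjusted p = 0.00520). Within scan day 1 this change was only -0.37, and within scan day 3, with 1 serum/LIF array, it was -2.46. KOSR/LIF against serum/LIF was 0.91 for Crabp2, with a 95% interval of -0.16 to 1.98 (adjusted p = 0.354). Crabp1, which binds retinoic acid in the cytoplasm, had levels of 0.16, 1.14, 0.94, -0.55 and 0.42 in 2i/LIF, 0.68, 2.36 and 1.78 in KOSR/LIF, and -0.68, 0.65 and 0.38 in serum/LIF. It passed in none of the comparisons, and KOSR/LIF replicate 1, the lowest of its medium and just above the highest serum/LIF array, lay within the 2i/LIF range. KOSR/LIF against serum/LIF was 1.49 ± 0.53 (adjusted p = 0.149), and 2i/LIF against KOSR/LIF was -1.19 ± 0.47 (adjusted p = 0.126). Leaving out KOSR/LIF replicate 3 made these 1.40 (adjusted p = 0.284) and -1.10 (adjusted p = 0.267). The change of 2i/LIF against serum/LIF was 0.30, with a 95% interval of -0.74 to 1.34 (adjusted p = 0.784).

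Rarb encodes a retinoic acid receptor that is also a textbook direct target of the pathway. Its brighter probe stood at -2.44, -6.12, -3.33, -5.66 and -2.73 in 2i/LIF, -1.10, -1.05 and -0.13 in KOSR/LIF, and -5.38, -3.90 and -2.82 in serum/LIF. All KOSR/LIF arrays were above all others, and the values of 2i/LIF and serum/LIF were widely spread, with 3 of 5 and 2 of 3 spots well above background. 2i/LIF against KOSR/LIF gave -3.29 ± 0.87 (adjusted p = 0.0246; -2.54 with dim signals raised). Without KOSR/LIF replicate 3 this was -2.98 (adjusted p = 0.0955), and the call was also lost without KOSR/LIF replicate 1 (-3.46, adjusted p = 0.0553) or replicate 2 (-3.44, adjusted p = 0.0561). KOSR/LIF against serum/LIF gave 3.27 ± 0.97 and missed the threshold (adjusted p = 0.0837), and it passed in 7 of 28 settings, the value table (2.51, adjusted p = 0.0422) and normexp (1.56, adjusted p = 0.00429) among them. Under normexp 2i/LIF against KOSR/LIF was -1.48 (adjusted p = 0.000557). The second probe, in a fit of all probes, gave 2.46 ± 0.58 (adjusted p = 0.0364) for the same comparison and -2.31 ± 0.52 (adjusted p = 0.0111) for 2i/LIF against KOSR/LIF. Both probes had their highest level in KOSR/LIF. For 2i/LIF against serum/LIF the brighter probe gave -0.02, with a wide 95% interval of -1.92 to 1.87 (adjusted p = 0.993). Within scan day 1 the brighter probe gave -3.42 for 2i/LIF against KOSR/LIF (adjusted p = 0.0602). Rarb and Cyp26a1, the genes with the element shown above, both had their highest mean in KOSR/LIF. The same held for Stra6, Dhrs3, Crabp1, Crabp2, Rarg and Stra8, so this trait does not set the genes with the element apart. Of these, Crabp2 had no promoter window, and the windows of the others held no such element. Rarb and Cyp26a1 differed in the medium that stood apart from the others. For Rarb this was KOSR/LIF, with a high level, and for Cyp26a1 it was 2i/LIF, with a low level.

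Rarg, the receptor gene long known as active in undifferentiated ES cells, was well above background everywhere. Its level was 3.89, 2.71, 4.32, 3.56 and 4.15 in 2i/LIF, 5.50, 4.95 and 5.22 in KOSR/LIF, and 5.12, 5.30 and 4.74 in serum/LIF. The 2i/LIF arrays were below all the others, and KOSR/LIF and serum/LIF overlapped. 2i/LIF against serum/LIF gave -1.33 ± 0.34 (adjusted p = 0.0191). This missed the threshold when serum/LIF replicate 1 was left out (-1.29, adjusted p = 0.0757), when serum/LIF replicate 2 was left out (-1.20, adjusted p = 0.0887) and within scan day 1 (-1.27, adjusted p = 0.0615). It was also lost with the replicate block. Within scan day 3, with 1 serum/LIF array, the change was only -0.72. 2i/LIF against KOSR/LIF gave -1.50 ± 0.34 (adjusted p = 0.0121), and missed the threshold without KOSR/LIF replicate 1 (-1.36, adjusted p = 0.0559) and within scan day 1 (-1.28, adjusted p = 0.0649). The replicate block also lost this call. The change was -1.50 without KOSR/LIF replicate 3 (adjusted p = 0.0358). KOSR/LIF against serum/LIF was 0.17, with a 95% interval of -0.67 to 1.01 (adjusted p = 0.839).

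**Figure D3:**
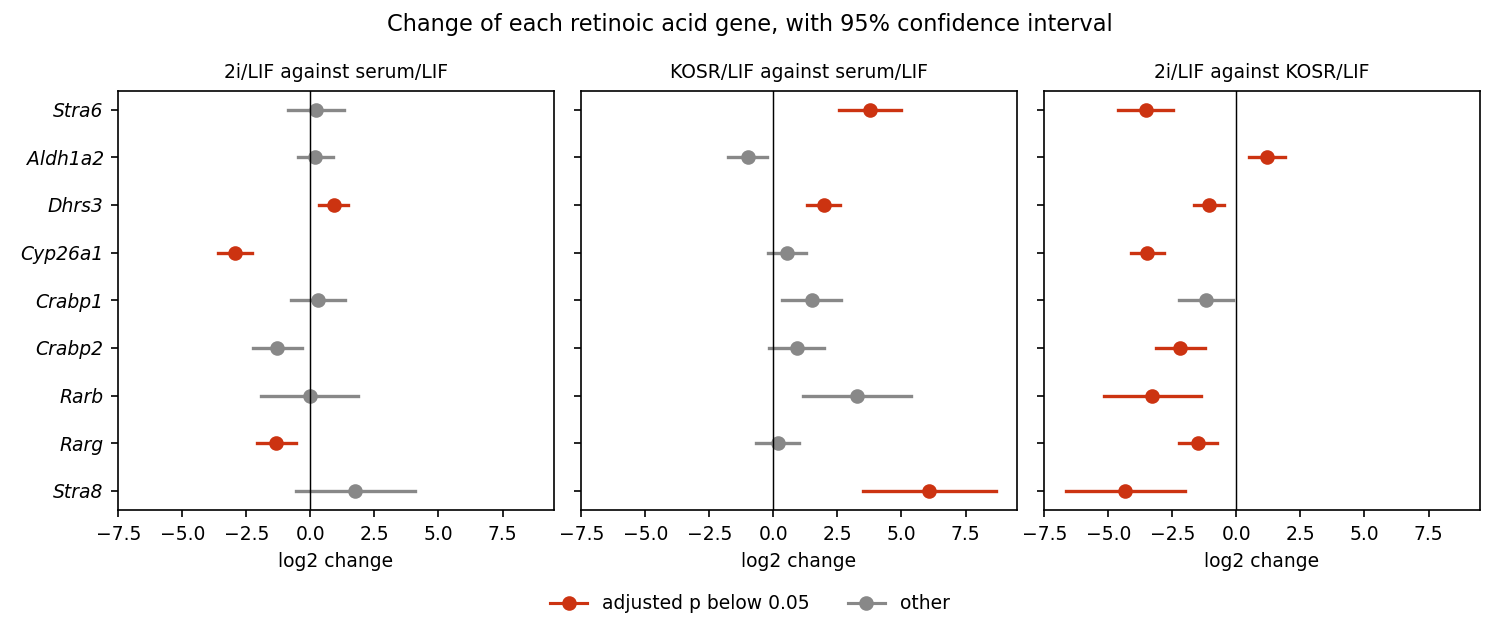
Log2 change of each of the 9 genes in the 3 comparisons, with its 95% confidence interval from limma; red marks an adjusted p below 0.05. The intervals are widest for Stra8 and Rarb, and in 2i/LIF against KOSR/LIF 7 of the 8 genes that passed lie left of 0.

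Stra8 had the widest range of the 9. Its level was 3.79, 0.84, 3.53, 0.00 and 2.89 in 2i/LIF, 7.01, 6.75 and 5.90 in KOSR/LIF, and -1.35, -0.46 and 3.19 in serum/LIF. The KOSR/LIF arrays lay above all others, and serum/LIF replicate 3 lay among the higher 2i/LIF arrays. KOSR/LIF against serum/LIF gave 6.09 ± 1.19 (adjusted p = 0.0161), rank 2 of 16279 genes by size, with a 95% interval of 3.49 to 8.69. 2i/LIF against KOSR/LIF gave -4.34 ± 1.06 (adjusted p = 0.0170), while 2i/LIF against serum/LIF, at 1.75 ± 1.06, did not pass (adjusted p = 0.348; 95% interval -0.57 to 4.07). The first call was lost without any 1 of KOSR/LIF replicates 1 and 2 or serum/LIF replicates 1 and 2, with changes of 5.19 to 5.99 and adjusted p from 0.0515 to 0.0747. The second was lost without KOSR/LIF replicate 1 (-4.11, adjusted p = 0.0619) or replicate 2 (-4.24, adjusted p = 0.0553). Without KOSR/LIF replicate 3 both held, at 6.42 (adjusted p = 0.0334) and -4.67 (adjusted p = 0.0383).

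The size of the Stra8 change depended on the source of the values. On 10 table columns that have a matching scanner array, table values could be set against the value that the spot's own rank on the array gives. For 7 of the 9 genes all 10 values were within 0.0306 of it (log2). For Stra8 7 of the 10 values were within 0.5, but the table was 3.38 log2 units higher on serum/LIF replicate 1, 2.59 higher on serum/LIF replicate 2 and 2.91 higher on 2i/LIF replicate 4, the 3 arrays with the lowest Stra8. These spots were well above background and carried no outlier flag. Only 17, 33 and 36 of the 31287, 32253 and 31031 spots well above background on these arrays were off by more than 2 log2 units. For Rarb 1 dim spot, on 2i/LIF replicate 2, was 4.23 higher in the table. In the table's own columns Stra8 stood at 2.92, 0.79, 3.36, 3.56 and 2.68 in 2i/LIF, at 6.65, 6.88 and 6.07 in KOSR/LIF and at 2.22, 2.17 and 3.10 in serum/LIF, and KOSR/LIF against serum/LIF was 4.04 (adjusted p = 0.00478). 2i/LIF against KOSR/LIF was -3.87 there (adjusted p = 0.000569). KOSR/LIF was thus above serum/LIF in both sources, and the cause of the difference between them was not tested.

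From the value table, all calls of the genes described so far that involve KOSR/LIF were kept except that of Dhrs3 in 2i/LIF against KOSR/LIF, given above. Stra6 was higher in KOSR/LIF than in serum/LIF by 2.77 (adjusted p = 0.00686), and Dhrs3 by 1.55 (adjusted p = 0.0308). For 2i/LIF against KOSR/LIF the table gave -2.68 for Stra6 (adjusted p = 0.000923), 0.98 for Aldh1a2 (adjusted p = 0.0277) and -2.73 for Crabp2 (adjusted p = 0.00546). In the same comparison it gave -2.68 for Cyp26a1 (adjusted p = 1.98e-05), -2.11 for Rarb (adjusted p = 0.0202) and -1.43 for Rarg (adjusted p = 0.00542). Crabp1 passed in neither comparison there, at 1.48 (adjusted p = 0.128) against serum/LIF and -1.18 (adjusted p = 0.0962) for 2i/LIF against KOSR/LIF. Crabp2 in KOSR/LIF against serum/LIF was 1.48 in the table (adjusted p = 0.231) and 0.78 when the table's column of KOSR/LIF replicate 3 was left out, and passed in neither case.

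Of 10 germ cell markers, all well above background on every array, 4 were, like Stra8, higher in KOSR/LIF than in serum/LIF, and the 10 markers' summed level ran from 5.19 to 5.38 in KOSR/LIF and from 3.57 to 4.24 in serum/LIF. The 2i/LIF arrays had sums of 3.79 to 4.74, with 2 markers higher and 3 markers lower against serum/LIF. Rec8 and Sycp3 stand both among these markers and among the response genes below. For 10 trophoblast markers the sums were 4.05 to 4.49 on the 2i/LIF arrays, 3.99 to 5.17 on the KOSR/LIF arrays and 6.51 to 7.50 on the serum/LIF arrays, with 3 markers lower in 2i/LIF and 2 lower in KOSR/LIF than in serum/LIF, none higher, and Tpbpa not well above background on any array. The sums of 10 primitive endoderm markers were 3.38 to 4.35 on the 2i/LIF arrays, 2.71 to 5.65 on the KOSR/LIF arrays, with replicate 3 lowest, and 3.69 to 4.35 on the serum/LIF arrays. Against serum/LIF 3 of them were lower in 2i/LIF and 1 was higher in KOSR/LIF. Lama1, the brightest, made most of these sums (4.31 on 2i/LIF replicate 1, where the sum was 4.35). On KOSR/LIF replicates 1 and 2 every other marker of the 10 was above all serum/LIF arrays. Pdgfra, for example, stood at 0.13 and -1.14, against -3.76 or less. On KOSR/LIF replicate 3 most were not, and Pdgfra (-4.33) was not well above background there. Fibroblast or feeder cell markers, also 10, had sums of 2.21 to 2.66 on the 2i/LIF arrays, below all others, 3.11 to 3.90 on the KOSR/LIF arrays and 2.68 to 4.01 on the serum/LIF arrays. In 2i/LIF 5 of them were lower than in serum/LIF and 1 was higher, in the same direction as Cyp26a1 and Rarg for the 5, and in KOSR/LIF 1 was higher. For 10 neural progenitor markers the sums overlapped, at 3.27 to 4.33 on the 2i/LIF arrays, 3.38 to 4.38 on the KOSR/LIF arrays and 3.82 to 3.86 on the serum/LIF arrays, with 1 marker lower in 2i/LIF and none called in KOSR/LIF. These counts are read beside the shares of all genes tested. In 2i/LIF against serum/LIF 6.74% passed as higher and 9.98% as lower, and 1 lower marker of 10 lies near that share. In KOSR/LIF against serum/LIF 2.37% passed as higher and 2.21% as lower. The marker lists were also chosen with earlier results of these data known. The part of these cell types in the results was not tested.

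Across the 11 arrays the 9 genes fell into neighbouring patterns. Stra8 varied with Rarb (Pearson's r = 0.90), Stra6 (0.87) and Dhrs3 (0.84), and Cyp26a1 varied with Crabp2 (0.83) and Rarg (0.82). Dhrs3 and Cyp26a1 had r = 0.13, and Aldh1a2 had negative values with all 8 others (-0.46 to -0.65). These arrays share 3 media and so the values only describe the pattern. Among all other genes tested, those most like Stra8 were Slc47a2 (0.95) and Efhc2 (0.94), those most like Stra6 were Serinc2 (0.99) and Acsbg1 (0.97), and those most like Cyp26a1 were Spaca9 and Plppr3 (0.98 each). Dkkl1 (0.98) and Macroh2a3 (0.94) were most like Dhrs3, Hus1b (0.96) and Nrxn2 (0.95) most like Rarb, and Tspan4 and Mkrn1 (0.96 each) most like Rarg. For Crabp1 they were Meiob (0.92) and Hs3st6 (0.91), for Crabp2 Col6a4 (0.97) and Inhbc (0.96), and for Aldh1a2 S100a14 (0.94) and Mpst (0.93). Without KOSR/LIF replicate 3 these correlations ran from 0.89 to 0.99.

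Another 81 genes of the pathway, also chosen with earlier results of these data known, were read beside the 9, and 72 were tested. In 2i/LIF against serum/LIF 2 passed as higher and 10 as lower, with a median of -0.02, where 6.74% of all genes tested passed as higher and 9.98% as lower. In KOSR/LIF against serum/LIF 7 passed as higher and none as lower, with a median of 0.23, where 2.37% of all genes passed as higher and 2.21% as lower. Here 4 passed when any 1 of KOSR/LIF replicates 1, 2 and 3 or serum/LIF replicates 1 and 2 was left out. Of all genes, 395, 386, 631, 225 and 331 passed there. In 2i/LIF against KOSR/LIF 2 of the 72 passed as higher and 20 as lower, with a median of -0.39, where 5.95% of all genes passed as higher and 8.72% as lower. Without KOSR/LIF replicate 3, 18 of the 72 passed, beside 1958 of all genes. The genes that passed in KOSR/LIF against serum/LIF were all in the response group. Whether each gene of this list named below keeps its call without KOSR/LIF replicate 3 or in the value table is not given.

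**Figure D4:**
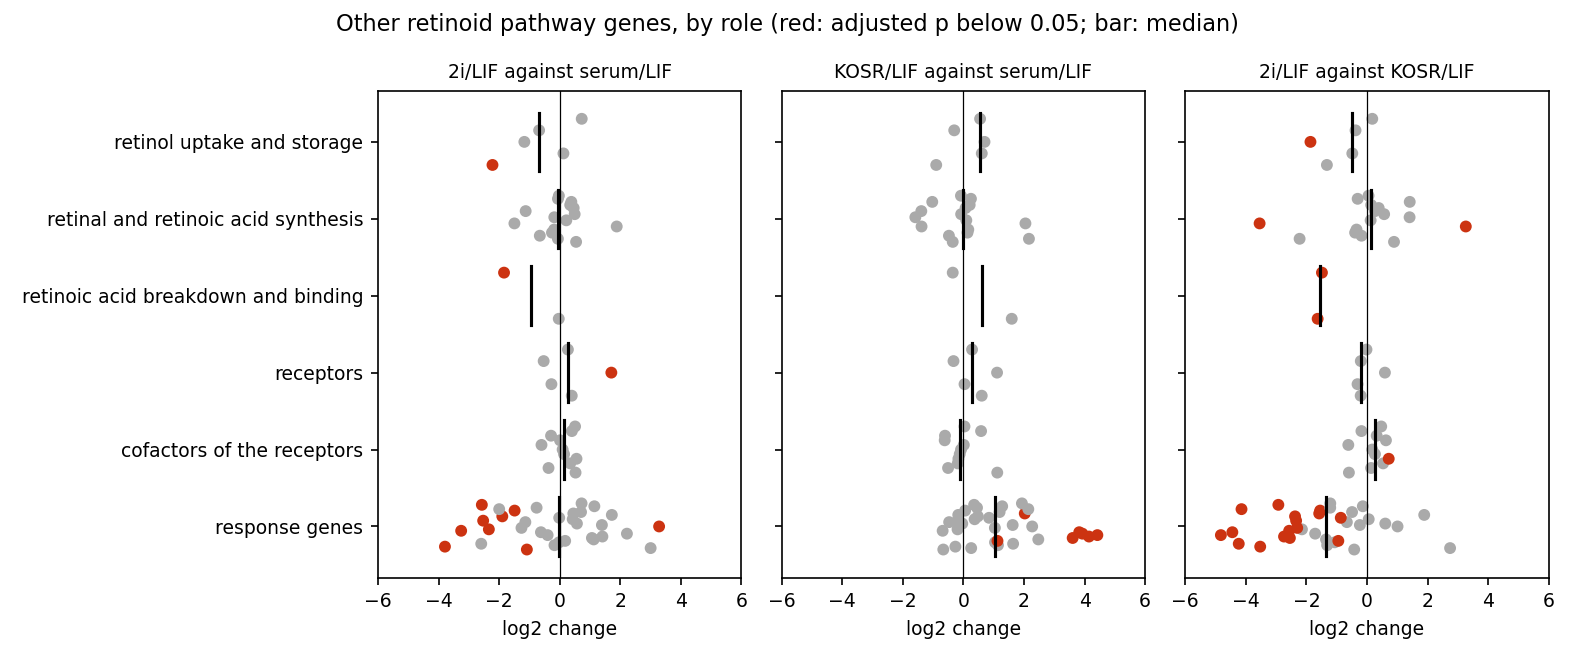
Log2 change of 72 other retinoid pathway genes by role in the 3 comparisons; each point is a gene, red has an adjusted p below 0.05, and the black bar is the median of the role. In KOSR/LIF against serum/LIF the red points, 7 in all, lie in the response group.

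The response list does not give the direction in which retinoic acid moves each gene, so counts below do not measure a response's strength. Of 33 response genes tested, 1 rose and 8 fell in 2i/LIF relative to serum/LIF, beside 6.74% and 9.98% of all genes. In KOSR/LIF 7 were higher and none lower than in serum/LIF, beside 2.37% and 2.21%. In 2i/LIF none were higher and 16 lower than in KOSR/LIF, beside 5.95% and 8.72%. The 7 include 5 Hox genes, which give cells their position along the body axis. Hoxb2 stood at -1.36, -0.41 and -0.34 in KOSR/LIF and at -4.61, -5.90 and -4.86 in serum/LIF, a change of 4.42 ± 0.60 (adjusted p = 0.00438; 3.82 with dim signals raised). Hoxa3 was higher by 4.15 ± 0.91 (adjusted p = 0.0266; 4.03 raised). In 2i/LIF Hoxb2 ran from -6.72 to -4.48, and 2i/LIF against KOSR/LIF gave -4.82 ± 0.54 (adjusted p = 0.000162; -3.71 raised). Hoxb5 was well above background on no 2i/LIF array and was at least 5.53-fold lower there than in KOSR/LIF (adjusted p = 0.000291).

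The lower response genes of 2i/LIF against serum/LIF were led by Dusp6, a phosphatase that acts on ERK and whose gene is also a known target of FGF and ERK signalling. It averaged 0.35 ± 0.39 in 2i/LIF (SD, n = 5), 3.87 ± 0.13 in KOSR/LIF and 4.14 ± 0.24 in serum/LIF (SD, n = 3 each), and 2i/LIF against serum/LIF gave -3.79 ± 0.25 (adjusted p = 3.90e-06 by limma). Lamb1, a laminin chain gene, gave -3.25 ± 0.34 (adjusted p = 7.24e-05). Meis2, a homeobox gene, was the gene of this group that rose, by 3.28 ± 0.55 (adjusted p = 0.00156).

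Among the receptors of this wider list, Rara ran from 3.12 to 4.38 over all arrays and passed in no comparison (changes of -0.27, 0.04 and -0.31). Rxra, a partner of all retinoic acid receptors, stood at -0.73, 0.62, 0.01, -0.21 and 0.45 in 2i/LIF, at -0.82, 0.16 and -1.02 in KOSR/LIF, and at -1.81, -1.01 and -2.21 in serum/LIF. 2i/LIF exceeded serum/LIF by 1.70 ± 0.39 (adjusted p = 0.0101), and KOSR/LIF gave 1.11 ± 0.44 over serum/LIF (adjusted p = 0.195). Rxrb, Rxrg and Ppard passed in no comparison, with changes from -0.53 to 0.61.

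Carriers, enzymes and cofactors outside the 9 are read beside the shares of all genes that passed. These were 16.7% in 2i/LIF against serum/LIF, 4.58% in KOSR/LIF against serum/LIF and 14.7% in 2i/LIF against KOSR/LIF. Between 2i/LIF and KOSR/LIF, 1 of 5 uptake and storage genes tested was lower in 2i/LIF. Of 2 breakdown and binding genes tested, 2 were lower there. Fabp5, a carrier that can pass retinoic acid to Ppard, fell in 2i/LIF relative to serum/LIF (-1.84 ± 0.38, adjusted p = 0.00565). Fabp5 was also lower in 2i/LIF than in KOSR/LIF (-1.49 ± 0.38, adjusted p = 0.0220), as were Rbp4, which carries retinol in blood (-1.87 ± 0.49, adjusted p = 0.0245), and Cyp26b1, a relative of Cyp26a1 (-1.63 ± 0.44, adjusted p = 0.0265). Cyp26b1 was dim, being well above background on 3 of 5 2i/LIF and 2 of 3 KOSR/LIF arrays. With dim 2i/LIF signals raised its change was -1.265. Of 16 synthesis genes tested, none passed against serum/LIF in either medium. In 2i/LIF against KOSR/LIF 1 passed as higher and 1 as lower, beside 5.95% and 8.72% of all genes. Aldh1a3, another retinal dehydrogenase gene, was at least 2.01-fold higher in 2i/LIF than in KOSR/LIF (adjusted p = 0.00936), where it was well above background on none of 3 arrays. Aldh1a7, a paralogue of Aldh1a1, was lower in 2i/LIF than in KOSR/LIF (adjusted p = 0.000877). With dim 2i/LIF signals raised it was 3.07-fold lower. This is no firm lower bound, since the signal of KOSR/LIF replicate 3 was not well above background either. Of 11 cofactor genes tested, Kat2b alone passed, higher in 2i/LIF than in KOSR/LIF by 0.72 ± 0.21 (adjusted p = 0.0402).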

How the data were processed

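RNA from 11 ES cell samples was hybridised to Agilent one-colour arrays, 1 array a sample, with medium and replicate number read from the sample titles. The deposited scanner files hold linear intensities from Agilent Feature Extraction (version 11.0.1.1), already background-subtracted, per the file headers. The authors' deposited value table also holds linear intensities with nearly equal medians in all columns, and the steps behind it are not stated in the labels or headers. Titles and source names disagree on the cell line of 2i/LIF replicates 1 to 4, and so the test has no term for line. For KOSR/LIF and serum/LIF they agree, and each of the 3 lines has 1 array in each of these media. With line as a block, 3 of the 9 genes passed in KOSR/LIF against serum/LIF, as without it. Of all genes, 687 (line by title) and 685 (by source name) passed there. The labels do not say that replicates were separate cultures, so p-values cover only the spread among these samples, whose number limits the precision.

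Spots of 1 probe were averaged (55681 probes), and 33 probes with an outlier flag on some array were dropped. A RefSeq table of GRCm38.p6 named 27642 of the 29109 probes that carry an accession; it gave names only, since the probes were designed on mm9. Levels are log2 intensities minus the array's 75th percentile. Probes had to be well above background on at least 3 arrays, and the brightest represents its gene. limma 3.58.1 in R 4.3.3 (lmFit and eBayes, all 11 arrays, no covariates, two-sided) gave p-values that were adjusted over 16279 genes by Benjamini-Hochberg, with a threshold of 0.05. A fold written as "at least" belongs to a probe that no array of the dimmer medium had well above background: its signal there, or the array's lowest signal well above background where that is higher, is averaged and compared with the brighter medium. The test was tried on simulated data.

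The 9 genes, the wider pathway lists and the marker lists were chosen with earlier results of these data known. Per role of the wider list and per comparison, up to 2 genes that passed with the largest change in each direction are named, with all receptors, and for each of the 9 genes the 2 others with the highest Pearson correlation. A gene that this rule also names is not reported here. Alternatives were normexp (offset 50, on the median spot signal, as the files hold no mean), quantile normalization, the value table, other filters, the mean of a gene's probes, slide, scan day, cell line or replicate number as a block, and leaving out each array.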

Additional observations from a re-analysis of the deposited data

How the results depend on the processing

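Results of 2i/LIF against serum/LIF were recomputed under 29 other settings, and those that involve KOSR/LIF under 28, since scan day 3 held no KOSR/LIF array; 11 of the settings left out 1 array. The alternatives that omit KOSR/LIF replicate 3 from the value table, that name arrays as in the table, that use the median spot signal in normexp, and all those of the wider list were chosen after seeing the data. In 2i/LIF against serum/LIF, 2722 genes were called, against 1755 with normexp and 1117 within scan day 3. In KOSR/LIF against serum/LIF the count of 745 became 374 with normexp and 451 with no filter on dim probes. In 2i/LIF against KOSR/LIF the count of 2388 became 1517 with normexp and 1408 with the replicate block. Of the 9 genes, 1 instead of 3 was called in 2i/LIF against serum/LIF within scan day 1 and with the replicate block. In 2i/LIF against KOSR/LIF 4 instead of 8 were called within scan day 1 and 3 with the replicate block. Among all 16279 genes these settings called 2379 and 1929 in the first comparison and 2071 and 1408 in the second. For the wider list in 2i/LIF against serum/LIF the count of 12 became 20 in the value table without KOSR/LIF replicate 3 and 21 with slide as a block. The count over all genes rose there too, from 2722 to 3410 and 3743. In KOSR/LIF against serum/LIF the wider list's count of 7 became 4 with normexp and in the value table without KOSR/LIF replicate 3, and 12 without 2i/LIF replicates 1 and 5. Over all genes 745 became 374, 645 and 799 in these settings. In 2i/LIF against KOSR/LIF the wider list's count of 22 became 14 with normexp, where 1517 of all genes were called instead of 2388.

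Leaving out 1 array gave 1869 to 3203, 225 to 915 and 1759 to 2593 genes called in 2i/LIF against serum/LIF, KOSR/LIF against serum/LIF and 2i/LIF against KOSR/LIF. It gave 1 to 4, 2 to 3 and 4 to 8 of the 9 genes, and 7 to 14, 4 to 8 and 15 to 22 of the wider list. Without serum/LIF replicate 1, 2 or 3, or KOSR/LIF replicate 1 or 2, the genes called in KOSR/LIF against serum/LIF numbered 225, 331, 391, 395 and 386. The 9 genes had 1 call in 2i/LIF against serum/LIF without serum/LIF replicate 1 or 2, and 4 in 2i/LIF against KOSR/LIF without KOSR/LIF replicate 1 or 2. Of all genes, 1869 and 2025 were called in the former settings and 1759 and 1896 in the latter. The wider list had 7 calls in 2i/LIF against serum/LIF without serum/LIF replicate 1, where 1869 of all genes were called. Same-numbered arrays of different media had correlations from -0.20 to 0.18 in their deviations from the medium's mean, so the numbers were not taken to pair the samples. For KOSR/LIF and serum/LIF arrays of the same line these correlations ran from -0.0015 to 0.138.

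Changes of sign were confined, among the 9 genes and these settings, to changes that did not pass. Rarb in 2i/LIF against serum/LIF was -0.0224, and 0.08 with normexp, 0.40 in the value table with or without KOSR/LIF replicate 3, 0.0641 as the mean of its probes, 0.22 with slide as a block, 0.14 and 0.24 within scan days 1 and 3, 0.0713 with the replicate block, 0.0773 with cell line by title (0.0804 with arrays named as in the value table) and 0.13 by source name. Leaving out 1 array gave it -0.69 to 0.58. Stra6 in that comparison was -0.0221 with normexp and -0.90 within scan day 3, and ran from -0.21 to 0.68 without 1 array. Aldh1a2 was -0.27 and Crabp1 -0.10 within scan day 3, and they ran from -0.0345 to 0.50 and from -0.10 to 0.57 without 1 array. Rarg in KOSR/LIF against serum/LIF was -0.0832 with normexp. The cause of these changes was not tested. The dim signals of Stra6, Rarb and Cyp26a1 in 2i/LIF limit how large their differences can be shown to be.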
